A study of Mus musculus with 8 samples.

Results

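miR-132 and miR-212 are a pair of microRNAs whose hairpins lie side by side in the mouse genome. All deposited entries named mir-132 or mir-212 were taken, of any of the 3 species in the tables. These were 5 of 764 hairpin entries, namely mir-132 of mouse and rat and mir-212 of mouse, rat and human, and 34 of 5034 rows over the 8 tables. Entries of one name and arm were summed, which gave 4 miRNA arms of 683 in all, miR-132-3p, miR-132-5p, miR-212-5p and miR-212-3p. The names were the only basis of the choice, but the unequal levels of the partners were known beforehand, so levels are described without a test.

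The study sequenced small RNA from the whole hearts of 4 female and 4 male C57Bl6/J mice, which were wild type and 4 to 6 weeks old. Per the labels, molecules shorter than 200 nt were enriched from each extract. Both sexes shared strain, genotype and age range, the labels give no treatment, and each library came from 1 heart, so replicates are separate animals. Total counts per library ran from 29900500 to 38894987. Levels are CPM, each count divided by the mature-arm counts of its library, scaled by TMM factors of 0.845 to 1.06 in 7 hearts and 1.41 in female heart 3. That heart stood apart from the rest by this factor, and leaving it out was among the alternatives. The muscle miRNA miR-499-5p, which comes from an intron of a myosin gene, stood at 5199 ± 1707 CPM in the females and 4552 ± 1224 CPM in the males (SD, n = 4 each). A whole heart holds several cell types, so a difference in their numbers and a difference in RNA per cell cannot be told apart.

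Both hairpins are cut from one primary transcript, and each hairpin can release a 5p and a 3p arm. The arm loaded into an Argonaute protein pairs with messenger RNAs mainly through its seed, bases 2 to 8, and lowers their output. The cluster is known as a target of the transcription factor CREB in neurons. In mouse heart, raised miR-132 and miR-212 are known to cause cardiomyocyte hypertrophy and block autophagy through the transcription factor FoxO3, and an antisense inhibitor of miR-132 has been tested against heart failure.

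The 3p arms are shown first because they carry the same seed, in capitals, so that targets predicted by seed are shared while their abundances are not. Sequences and positions are those of RefSeq on GRCm38.p6, the assembly of mm10, and all 4 arms matched by name.
mmu-miR-132-3p: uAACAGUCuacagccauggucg
mmu-miR-212-3p: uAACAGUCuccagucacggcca
The seed AACAGUC occurred in 2 of 1738 mature mouse miRNAs, which were these. The 3p arms were identical at their first 9 bases, UAACAGUCU, and at 17 of 22 positions compared without gaps, counted from 1 at the 5′ end. The first difference was at position 10.

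The 5p arms have unlike seeds, and neither seed was shared with another of the 1738 miRNAs.
mmu-miR-132-5p: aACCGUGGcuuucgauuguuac
mmu-miR-212-5p: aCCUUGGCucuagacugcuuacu
Compared without gaps, these arms were identical at 9 of 22 positions. The hairpins follow with both mature arms in capitals, to show that the partners lie on the same strand in the order miR-212 then miR-132.
Mir212: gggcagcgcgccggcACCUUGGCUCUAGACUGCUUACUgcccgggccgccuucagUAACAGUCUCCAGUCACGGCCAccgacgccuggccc
Mir132: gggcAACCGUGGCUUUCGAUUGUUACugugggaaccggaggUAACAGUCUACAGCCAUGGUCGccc
Mir212 spans chr11:75173388-75173478 and Mir132 spans chr11:75173682-75173747, both on the plus strand and 203 bases apart. In GENCODE vM21 both lie in intron 1 of 1700016P03Rik, a processed transcript of 3 exons at chr11:75172560-75177633. The hairpin of miR-212 is 91 nt long and that of miR-132 is 66 nt long.

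miR-132-3p was the most abundant of the 4 arms in every heart. Its counts were 1884, 1322, 1112 and 1355 in female hearts 1 to 4, against 1713, 1485, 1711 and 1762 in male hearts 1 to 4. Scaled, these were 73.1, 33.1, 26.0 and 40.2 CPM in female hearts and 59.9, 48.1, 50.3 and 62.5 CPM in male hearts. Female hearts 2, 3 and 4 lay below every male heart and female heart 1 lay above every male heart, so the sexes overlapped. The means were 43.1 ± 20.8 CPM in the females and 55.2 ± 7.03 CPM in the males (SD, n = 4 each).

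miR-132-5p, the other arm of the same hairpin, had 567, 576, 795 and 492 counts in female hearts and 541, 546, 664 and 971 counts in male hearts. Its levels were 22.0, 14.4, 18.6 and 14.6 CPM in female hearts, against 18.9, 17.7, 19.5 and 34.4 CPM in male hearts. Male heart 4 stood above the 7 others, which ran from 14.4 to 22.0 CPM. The means were 17.4 ± 3.62 CPM in the females and 22.6 ± 7.89 CPM in the males (SD, n = 4 each).

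miR-212-5p was the main arm of the other hairpin. It had 141, 237, 161 and 275 counts in female hearts and 155, 217, 238 and 236 counts in male hearts. This came to 5.47, 5.94, 3.77 and 8.15 CPM in female hearts and 5.42, 7.03, 7.001 and 8.37 CPM in male hearts. The lowest value was that of female heart 3, the highest that of male heart 4, and the sexes overlapped. The means were 5.83 ± 1.81 CPM in the females and 6.96 ± 1.20 CPM in the males (SD, n = 4 each).

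miR-212-3p, which shares its seed with miR-132-3p, was at the edge of detection. Its counts were 41, 0, 23 and 10 in female hearts and 52, 39, 13 and 0 in male hearts. Female heart 2 and male heart 4 were thus listed at 0, and the largest value, in male heart 1, was 1.82 CPM. The lowest value above 0 among all member rows was 10, and the columns of reads unique to 1 entry hold no value from 1 to 9 over the whole series. An entry at 0 may therefore hold reads under that minimum, and no upper limit or fold is given against it.

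**Figure D1:**
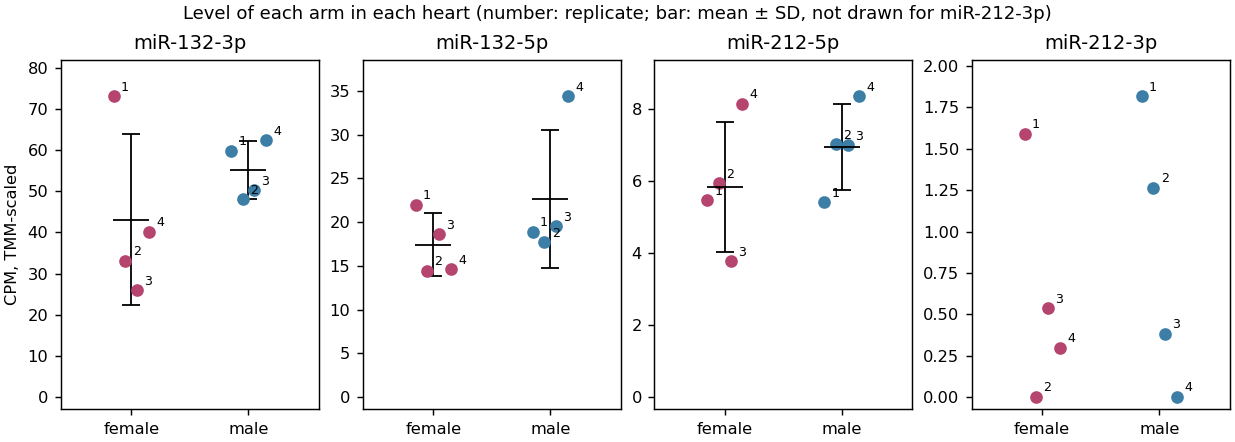
Level of each arm (CPM, TMM-scaled, vertical axis, different scale in each panel) in the 4 female (left) and 4 male (right) hearts of each panel, numbered by replicate, with mean and SD for all but miR-212-3p. Female heart 1 at 73.1 CPM lies above and the other female hearts lie below all male hearts for miR-132-3p, and male heart 4 stands apart for miR-132-5p at 34.4 CPM.

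The order miR-132-3p, miR-132-5p, miR-212-5p, miR-212-3p held within each of the 8 hearts. The mean CPM over 8 hearts of miR-132-3p was 2.45 times that of miR-132-5p and that of miR-132-5p was 3.13 times that of miR-212-5p. Across hearts, the ranges of the arms of miR-132 overlapped, since the lowest miR-132-3p value was 26.0 CPM and the highest miR-132-5p value was 34.4 CPM. The ranges of the other neighbours in this order did not overlap. By mean CPM the 4 arms ranked 167, 230, 314 and 486 among 683.

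**Figure D2:**
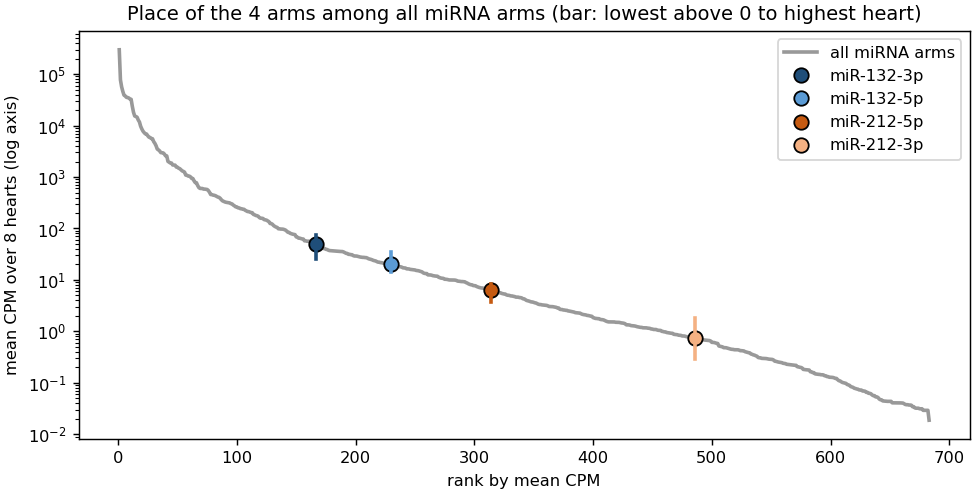
Mean CPM over 8 hearts (vertical, log axis) against rank for all 683 miRNA arms (grey line), with the 4 arms of the pair as points and, for each, a bar over its hearts with counts above 0. The arms of miR-132 rank 167 and 230, and those of miR-212 rank 314 and 486.

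Pooled over the hearts, miR-132-3p supplied 63.8% of the 19334 mature counts of the pair, miR-132-5p 26.6%, miR-212-5p 8.59% and miR-212-3p 0.921%. mir-212 as a whole made up 10.05% ± 2.80 of the pair in the females and 9.28% ± 1.45 in the males (SD, n = 4 each). Its share ran from 6.91% in female heart 1 to 13.4% in female heart 4, and the 4 male hearts lay between these. Of the 12522 reads on the 3p arms, whose mature sequences share a seed, 178 or 1.42% came from miR-212-3p. In these hearts the reads on these arms thus came mainly from the mir-132 hairpin. The share of miR-212-3p could be too low if a minimum removed its rarer reads. Exact reads numbered 1390 on miR-132-3p and 62 on miR-212-3p. Whether the other reads keep the shared seed was not tested.

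**Figure D3:**
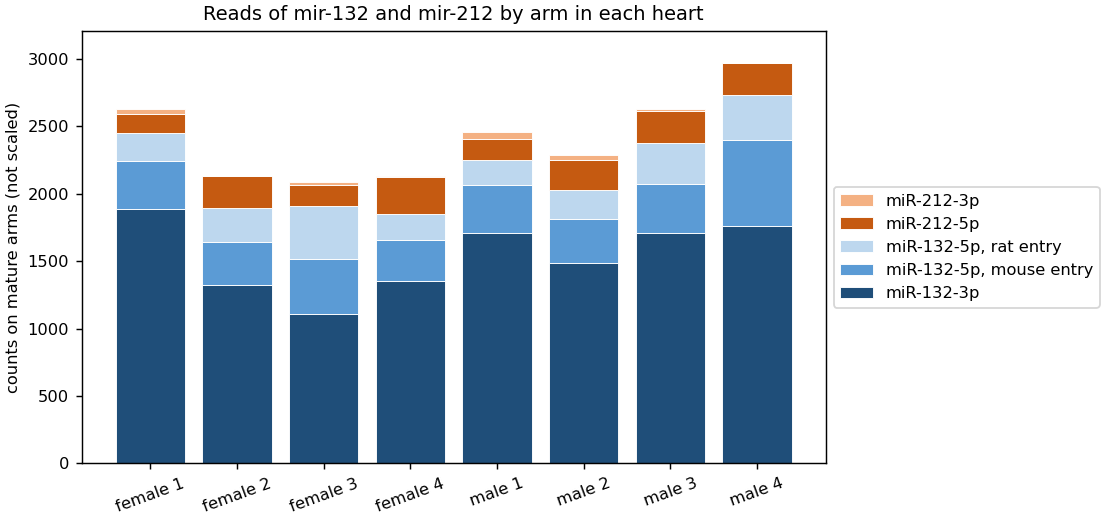
Counts on mature arms (vertical axis, not scaled for depth) in each female (left) and male (right) heart, stacked by arm, with miR-132-5p split by the species of the entry. miR-132-3p forms the largest block in every bar, from 1112 counts in female heart 3 to 1884 in female heart 1, and miR-212-3p is a thin cap or absent.

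By all counted reads, the partners differed in which arm dominated. The 3p arm of mir-132 exceeded its 5p arm 3.32, 2.29, 1.40 and 2.75 times in female hearts 1 to 4, and 3.16, 2.72, 2.58 and 1.81 times in male hearts 1 to 4. All 8 hearts favoured the 3p arm, and female heart 3 came nearest to equal arms. Exact reads summed over entries did not show this preference, with 1719 on the 5p arm and 1390 on the 3p arm over all hearts. Their mean log2 ratio of 5p to 3p was 0.27. Under the mouse entry alone, exact reads numbered 78 on the 5p arm and 1390 on the 3p arm. The other 1641 exact reads of the 5p arm stood under the rat entry. The 3p arm held 69.5% ± 8.05 of mir-132 counts in the females and 71.4% ± 4.92 in the males (SD, n = 4 each). In female heart 3 it held 58.3% (95% Clopper-Pearson interval 56.1 to 60.5), against 76.9% (75.1 to 78.5) in female heart 1. Such intervals cover counting error only, since PCR copies are not independent molecules.

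By all counted reads, mir-212 had the opposite preference, with more 5p than 3p reads in all 8 hearts. Where the 3p arm had counts, the 5p arm exceeded it 3.41, 6.87 and 26.2 times in female hearts 1, 3 and 4, and 2.96, 5.51 and 17.7 times in male hearts 1, 2 and 3. These folds rest on 10 to 52 reads of the 3p arm in each heart, and could be too high if a minimum removed its rarer reads. Pooled, the 5p arm held 90.3% of the 1838 mature counts of mir-212. Exact reads alone did not show this preference in every heart, with 0 on the 5p arm and 24 on the 3p arm in male heart 1. Over all hearts they numbered 120 on the 5p arm, all under the rat entry, and 62 on the 3p arm.

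The species of the entry mattered for the 5p arms. The 3p arm of mir-132 was listed under the mouse entry alone, while 2081 of 5152 counts of miR-132-5p stood under the rat entry. The rat share of miR-132-5p was 42.1% ± 5.55 in the females and 38.6% ± 5.47 in the males (SD, n = 4 each), and was highest in female heart 3 at 49.1%. For miR-212-5p the rat entry held 120 of 1660 counts, and for miR-212-3p a human entry held 34 of 178. In all 34 member rows every arm count equalled its unique count, so no read of the pair was listed under more than 1 entry.

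Reads matching the listed mature sequence exactly split along the same lines. Under the rat entry of miR-132-5p, 1641 of 2081 reads, or 78.9%, were exact, against 78 of 3071, or 2.54%, under the mouse entry. For miR-212-5p, 120 of 120 reads were exact under the rat entry and 0 of 1540 under the mouse entry. Exact reads made up 11.3% of miR-132-3p and 26.4% of the mouse entry of miR-212-3p, against 23.8% to 27.0% of mature counts over the libraries. Whether the remaining reads were variants in length or in sequence was not tested.

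The level of mir-132 over that of mir-212 was computed within each heart, where library scaling has no part. Summed over arms, mir-132 exceeded mir-212 13.4, 7.99, 10.3 and 6.47 times in female hearts 1 to 4, and 10.9, 7.92, 9.45 and 11.6 times in male hearts 1 to 4. The geometric mean was 9.21 in female and 9.85 in male hearts, and the female hearts held both the highest and the lowest ratio. The mean log2 ratio over 8 hearts was 3.25, and 4.08 with exact reads alone. On the 5p arms alone the ratio was 4.01, 2.43, 4.93 and 1.79 in female hearts, against 3.48, 2.51, 2.79 and 4.11 in male hearts. The geometric means of this ratio were 3.04 in female and 3.16 in male hearts. Its size depended on which reads were counted. The mean log2 ratio over 8 hearts was 1.63 as given, 0.99 with mouse entries alone and 4.21 with exact reads alone. The last value includes male heart 1, with 0 exact reads of miR-212-5p, through the pseudocount.

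On the 3p arms the ratio could be formed in the 6 hearts with miR-212-3p counts. With 0.5 added to each count it was 45.4, 47.3 and 129 in female hearts 1, 3 and 4, and 32.6, 37.6 and 127 in male hearts 1, 2 and 3. By all counted reads, the partners were thus much further apart on the arms with the shared seed than on the 5p arms. A minimum that removed the rarer reads of miR-212-3p could widen this gap, which was not tested. With exact reads alone the mean log2 ratio was 5.96 on the 3p arms and 4.21 on the 5p arms, both dependent on the pseudocount. Exact reads of miR-212-3p were 0 in female hearts 2 and 4 and male hearts 2 and 4. Exact reads of miR-212-5p were 0 in male heart 1. In the other hearts the 3p ratio was not the larger throughout. Female heart 1 had 171 exact reads of miR-132-5p and 14 of miR-212-5p, against 204 of miR-132-3p and 12 of miR-212-3p. In male heart 3 these 4 counts were 227, 18, 186 and 13. Female heart 3 had 318 exact reads of miR-132-5p and 16 of miR-212-5p, against 193 of miR-132-3p and 13 of miR-212-3p. The log2 ratio of all counted reads was also compared between the sexes, female minus male. It differed by -0.10 for both arms together, -0.06 for the 5p arms and 0.11 for the 3p arms. None passed an exact permutation test (two-sided, all 70 ways to split the 8 hearts into 4 and 4, with a smallest possible p of 0.0286), with exact p = 0.743, 0.886 and 0.857 in that order, each 0.886 after Benjamini-Hochberg adjustment over the 3 ratios. The 3p value includes the hearts at 0 through a pseudocount of 0.5.

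The choice of column changed the apparent distance between the partners. The deposited column of expression values equalled the mature 5' count in 5034 of 5034 rows. Read from that column, the mouse entry of mir-132 exceeded that of mir-212 only 2.80, 1.47, 2.79 and 1.18 times in female hearts, and 2.30, 1.63, 1.65 and 2.97 times in male hearts. That column covered 19.8% ± 4.15 of the total of the mouse mir-132 entry and 80.0% ± 9.63 of that of mir-212 (SD, n = 8 hearts). The 3p count of the mouse mir-132 entry, which the column leaves out, was 2.75 to 5.29 times the value it shows.

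**Figure D4:**
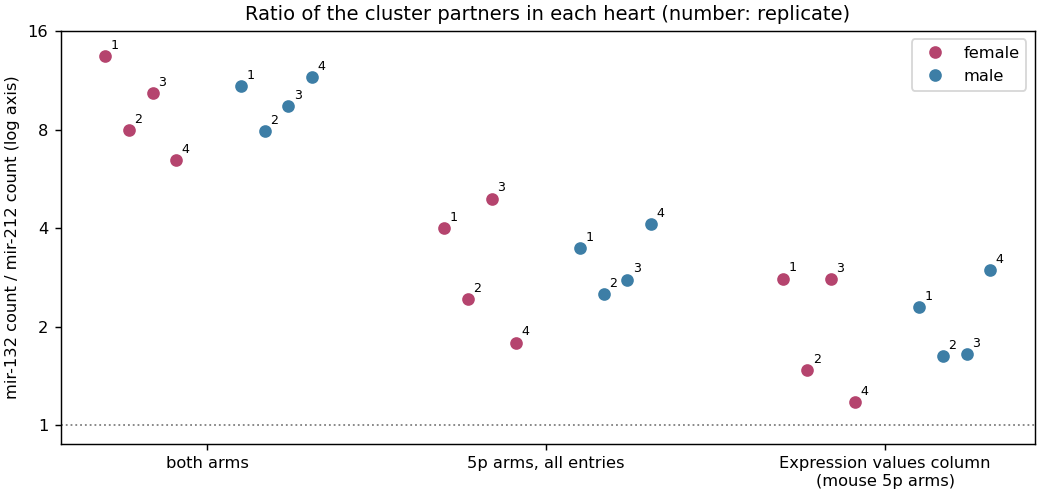
Count of mir-132 over count of mir-212 (vertical, log axis) in each female and male heart, numbered by replicate, from both arms, from the 5p arms of all entries and from the deposited expression value column, with a dotted line at equality. Ratios from both arms lie between 6.47 and 13.4, and those from the expression value column lie between 1.18 and 2.97.

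The series holds female and male hearts, and none of the 4 arms differed between them by the test used. In edgeR's quasi-likelihood test over 562 miRNA arms, 0 of the 4 arms and 0 of all 562 (0%) passed an adjusted p of 0.05, while 28 of 562 (4.98%) had an unadjusted p under 0.05, none of them of the pair. DESeq2 called 3 arms and limma-voom 0, again none of the pair. Female and male values did not overlap for 17 of the 562 arms (3.02%), with females below males in 7 (1.25%) and above in 10 (1.78%), and for 0 of the 4.

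All 4 estimates were below 0, that is, lower in female hearts, with intervals that include 0. For miR-132-3p the log2 fold change, female minus male, was -0.36 (SE 0.30, edgeR adjusted p = 0.823, 95% interval -1.01 to 0.29). For miR-132-5p it was -0.38 (SE 0.26, edgeR adjusted p = 0.801, 95% interval -0.95 to 0.19). For miR-212-5p it was -0.25 (SE 0.26, edgeR adjusted p = 0.823, 95% interval -0.82 to 0.31). Each of these intervals runs from female levels well below male levels to female levels somewhat above them. For miR-212-3p, at -0.53 (SE 1.24, edgeR adjusted p = 0.963, 95% interval -3.25 to 2.18), the depth allowed no statement on direction.

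The median log2 fold change over all 562 arms was -0.06, and it was 0.13 when libraries were scaled by size alone. Relative to that median, miR-132-3p stood at -0.30 with TMM factors and -0.37 with library size alone. Without female heart 1 the difference of miR-132-3p was -0.62 (edgeR adjusted p = 0.495), and without female heart 3 it was -0.13. Without male heart 4 that of miR-132-5p was -0.05, so the estimate of this arm rests mainly on 1 heart. That of miR-212-5p was -0.05 without female heart 3 and -0.46 without female heart 4.

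**Figure D5:**
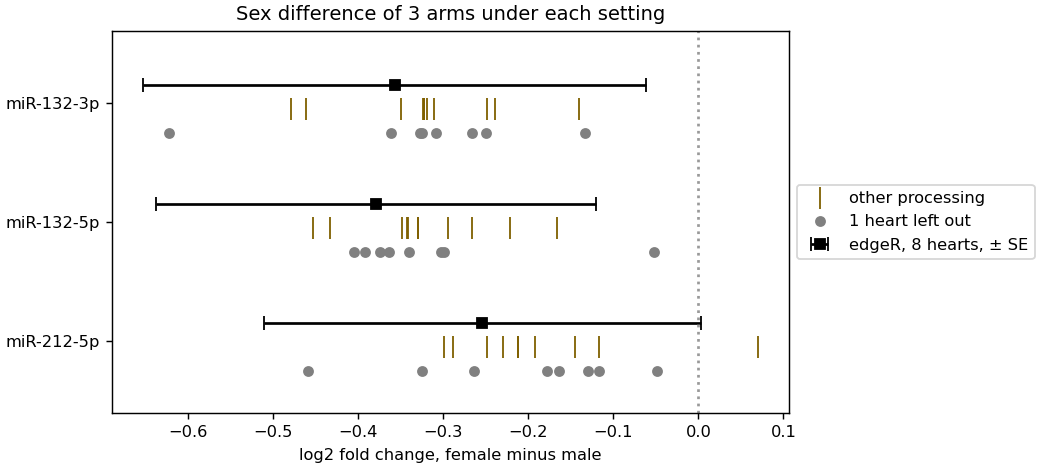
Log2 fold change, female minus male (horizontal axis), of miR-132-3p, miR-132-5p and miR-212-5p, as fitted by edgeR over 8 hearts with its SE (square), under other processing (ticks) and with 1 heart left out (circles). Values of miR-132-3p run from -0.62 to -0.13, and 1 processing setting puts miR-212-5p above 0, at 0.07.

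No difference between the sexes in the balance of the arms was detected. The log2 ratio of 5p to 3p counts of mir-132 was -1.22 ± 0.536 in the females and -1.33 ± 0.339 in the males (SD, n = 4 each). The difference was 0.11 (SE 0.32, limma adjusted p = 0.925 over 116 hairpins), and -0.13 without female heart 3. For mir-212 it was 0.27 (SE 1.97, limma adjusted p = 0.936), a value set largely by the pseudocount in the hearts at 0. Of the 116 hairpins, 0 (0%) passed the adjusted threshold and 4 (3.45%) had an unadjusted p under 0.05, none of them mir-132 or mir-212.

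The spread between hearts was large for miR-132-3p in one sex. Its coefficient of variation was 48.3% in the females and 12.7% in male hearts, against medians over the 562 arms of 30.9% in female and 23.3% in male hearts. Without female heart 1 the female value was 21.4%. Among the 278 arms with a mean of at least 10 CPM the medians were 24.9% in female and 17.8% in male hearts. The female spread was smaller without scaling. In CPM without TMM factors, miR-132-3p was 64.6, 35.0, 36.7 and 38.8 in female hearts and 50.6, 50.3, 53.05 and 52.8 in male hearts. On that scale the means were 43.8 ± 14.0 in female and 51.7 ± 1.46 in the males (SD, n = 4 each), and 3 female hearts again lay below and 1 above all male hearts. The coefficient of variation was then 31.9% in female hearts and 2.82% in male hearts, and 5.26% in the 3 female hearts other than heart 1.

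The pattern differed for the other arms. The coefficient of variation of miR-132-5p was 20.8% in female and 34.8% in male hearts, and that of miR-212-5p was 31.0% in female and 17.3% in male hearts. Over all 8 hearts the values were 32.1% for miR-132-3p, 31.6% for miR-132-5p, 24.1% for miR-212-5p and 97.7% for miR-212-3p, against a median of 29.1% for all arms. The value of miR-212-3p rests on counts of 0 to 52.

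No correlation between the arms over hearts passed the adjusted threshold. Over the 8 hearts, log2(CPM + 1) of miR-132-3p and miR-132-5p gave Pearson's r = 0.579 (exact permutation p = 0.126, adjusted 0.379) and Spearman's rho = 0.810 (exact permutation p = 0.0218, adjusted 0.0653), with p adjusted over 3 relations. Leaving out female hearts 1 and 3 gave r = 0.797. For miR-132-3p and miR-212-5p r was 0.423 (exact permutation p = 0.299, adjusted 0.448) and rho 0.214 (p = 0.619, adjusted 0.882), and r was 0.117 without female hearts 1 and 3. For miR-132-5p and miR-212-5p r was 0.217 (exact permutation p = 0.593, adjusted 0.593) and rho 0.0714 (p = 0.882, adjusted 0.882), and r was -0.51 without female heart 2 and male heart 4. With library size alone the 3 values of r were 0.243, -0.20 and -0.03, so the sign of those with miR-212-5p turned.

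Among 237 miRNA arms with a mouse entry and a mean of at least 10 CPM, those whose level over the 8 hearts was most like that of miR-132-3p were miR-361-3p (r = 0.973), miR-1843b-3p (r = 0.928) and let-7g-5p (r = 0.920). The median r of all 237 with it was 0.241. For miR-212-3p, among 238 arms, they were miR-145a-5p (r = 0.894), miR-185-3p (r = 0.892) and miR-342-3p (r = 0.854), against a median of 0.0403. The level of miR-212-3p rests on counts of 0 to 52, with female heart 2 and male heart 4 at 0. All these levels share the same libraries and scaling factors, and the highest of many r is high by selection.

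Other miRNAs reported to promote cardiac hypertrophy were mostly far more abundant. Over the 8 hearts miR-27b-3p averaged 12831 CPM, miR-22-3p 9720 CPM, miR-21a-5p 5592 CPM and miR-208a-3p, which is made from an intron of a cardiac myosin gene, 285 CPM. miR-222-3p at 80.5 CPM, miR-214-3p at 40.6 CPM and miR-199b-5p at 33.9 CPM lay nearest to the 49.2 ± 15.8 CPM of miR-132-3p (SD, n = 8). These are counts per arm, and miRNAs differ in how readily they are ligated and sequenced, so levels of different miRNAs are not exact ratios of molecules.

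Of 14 arms on that list, 7 were higher and 7 lower in female hearts, and 0 passed the edgeR test. The list had a median log2 fold change of -0.04, and all tested arms had -0.06. miR-195a-5p, which is known to hold back the cell cycle of cardiomyocytes, was the 1 arm with an unadjusted p under 0.05, at -0.57 (SE 0.23, edgeR adjusted p = 0.801). Of 5 arms reported to oppose hypertrophy, 3 were higher and 2 lower in female hearts, 0 passed, and the median was 0.05. No 3' arm named mir-133a was among the 683, so its level was not analysed here.

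Markers of the cell types in which the pair could be made were measured as well. Of 7 tested arms of neural miRNAs, 5 were higher and 2 lower in female hearts, 0 passed, and the median log2 fold change was 0.34. Their summed level was 1071 to 2246 CPM in female and 1973 to 3184 CPM in male hearts, nearly all of it from miR-128, which heart also expresses, and miR-9. The 2 lower arms were the copies of miR-128-3p, at mean levels of 1451 and 573 CPM (log2 fold change -0.55 and -0.48). The 5 higher arms were miR-9-5p at 184 CPM (0.08), miR-129-5p at 19.6 CPM (0.34) and, near the floor, miR-138-1-5p, miR-138-2-5p and miR-219a-1-5p at 1.16, 0.33 and 0.30 CPM. No arm named miR-124-3p or miR-137-3p, of the neuron-defining miRNAs on the list, was among the 683, so their levels were not analysed here. Cardiomyocyte arms were higher in female hearts in 4 of 4 with a median of 0.17, endothelial arms lower in 2 of 2 with a median of -0.25, smooth muscle arms higher in 2 of 2 with a median of 0.04, and leukocyte arms split 2 and 2 with a median of -0.22. Erythroid arms, from red blood cells, were lower in 3 of 3 with a median of -2.19, and their sum was 54.6 to 213 CPM in female and 154 to 1176 CPM in male hearts. In edgeR, unadjusted p was under 0.05 for 1 cardiomyocyte, 1 neural, 1 leukocyte and 2 erythroid arms, and for 0 endothelial and 0 smooth muscle arms. Over all arms it was so for 28 of 562 (4.98%). The cardiomyocyte arm was miR-133b-3p at 1.09 (SE 0.32, edgeR adjusted p = 0.481), while miR-208a-3p, miR-208b-3p and miR-499-5p stood at 0.15, 0.14 and 0.19. No arm of these lists passed the edgeR test with sex alone. With the replicate number as a block 1 passed, miR-144-5p of the erythroid list (log2 fold change -1.80, edgeR adjusted p = 0.0209). The part of these cell types in the levels of the pair was not tested.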

How the data were processed

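Each heart has 1 deposited table of read counts on hairpin entries. Per the file headers, these are split into mature 5', mature 3' and other reads, with exact and unique reads apart. The submitters' processing notes name STAR and mm10, without a version or role. The counting tool is not given in the sources used here. A lowest value of 10 may reflect a minimum set before the authors deposited the counts. Reads under such a minimum would be missing, so low counts could be too low as well as less precise. Ratios of a high count to a low count could then be too high. The size of this effect was not tested. Nothing used here says whether counting used strand.

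Entries of one name and arm were summed over species, and numbered copies were summed where fewer than 50% of mouse-entry reads were unique. Reads outside the mature arms were left out. Female and male hearts were compared with edgeR 4.0.16 in R 4.3.3 (TMM, estimateDisp, glmQLFit, glmQLFTest, sex alone), after filterByExpr with a minimum count of 10 and total of 15. P-values were adjusted by Benjamini-Hochberg over 562 arms, with a threshold of 0.05. Log2 ratios of arms, with a pseudocount of 0.5 and a mean of at least 10 counts on each arm, were tested with limma 3.58.1. DESeq2 1.42.0, limma-voom, other scaling, other filters, mouse entries alone, deposited rows, exact reads, the replicate number as a block and leaving out each heart were alternatives. The edgeR, limma and permutation steps were tested on simulated data.

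The named miRNAs are the members, the 3 arms with the highest r with miR-132-3p and with miR-212-3p, and members of marker and hypertrophy lists. The members and lists were chosen with earlier results of these data known. The library size scaling of the correlations and the coefficients of variation without 1 heart were added after seeing the data.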

Additional observations from a re-analysis of the deposited data

Results flagged for a closer look

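Of 28 groups of 4 hearts examined for a value far from the others of its sex, 2 had one, and chance gives about 1 in 20, or 1.4 groups here. The level of miR-132-5p in male heart 4 was 34.4 CPM, while the other male hearts lay between 17.7 and 19.5 CPM. Its count was 971, of which 639 stood under the mouse entry and 332 under the rat entry. Exact reads made up 17.4% of miR-132-3p in female heart 3, and 10.1% to 11.1% in the other female hearts. That heart also had the highest TMM factor and the lowest share of the 3p arm of mir-132.

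Reads on the hairpins outside both mature arms were not part of any comparison. They numbered 133 of 17629 reads (0.754%) on mir-132 and 231 of 2069 (11.2%) on mir-212. On mir-212 they made up 7.14%, 7.06%, 6.12% and 11.2% in female hearts 1 to 4, against 15.2%, 16.3%, 13.4% and 9.58% in male hearts 1 to 4. Their share averaged 7.88% ± 2.27 in the females and 13.6% ± 2.95 in the males (SD, n = 4 each), and female heart 4 lay above male heart 4. These reads were counted under the mouse entry, and the difference between the sexes was not tested.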

How the results depend on the processing

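The number of arms called between the sexes was 0 of 562 with edgeR. It was 1 with no filter, with at least 10 CPM in 4 libraries, with mouse entries alone, with exact reads and with the replicate block, and 3 with DESeq2. It ran from 0 to 2 with 1 heart left out, with 2 without female heart 3. The arms called were miR-182-5p, miR-708-5p, miR-708-3p, let-7d-3p and miR-144-5p, named after their values were seen, and none was of the pair. miR-132-3p kept its direction in 19 of 19 alternatives (-0.62 to -0.13), miR-132-5p in 19 of 19 (-0.45 to -0.05), miR-212-5p in 17 of 18 (0.06999 with exact reads) and miR-212-3p in 15 of 18 (0.0169 with mouse entries alone, 0.0334 with deposited rows, and -1.44 to 0.0871 with 1 heart left out). Neither arm of mir-212 passed the filter of 10 CPM. Arm ratio calls numbered 1 with at least 100 counts on each arm and 0 to 1 with 1 heart left out (1 without male heart 2). The difference in arm ratio was -0.0344 with exact reads and -0.13 (without female heart 3) to 0.28 with 1 heart left out for mir-132, and -1.14 with mouse entries alone and -1.18 to 1.82 with 1 heart left out for mir-212, which had no value with exact reads or at least 100 counts. The partner ratio difference ran from -0.28 to 0.0728 for both arms, -0.29 to 0.20 for the 5p arms and -1.23 to 1.61 for the 3p arms with 1 heart left out, and was -1.27 for the 3p arms with mouse entries alone and -1.20 for the 5p arms with exact reads, of which male heart 1 had none on miR-212-5p. The mean log2 ratio of mir-132 to mir-212, 3.25 ± 0.342 over 8 hearts (SD), was 4.08 with exact reads. On the 5p arms it was 1.63, against 0.99 with mouse entries alone and 4.21 with exact reads. The log2 ratio of 5p to 3p of mir-132, -1.28, was -2.02 with mouse entries alone and 0.27 with exact reads, which come mostly from the rat entry for the 5p arm. The correlations with miR-212-5p were -0.20 for miR-132-3p and -0.0337 for miR-132-5p with library size alone. Same-numbered hearts had correlated deviations of 0.498, 0.342, 0.0355 and -0.01, and not every heart correlated best with the one of its own number, so the numbers were not taken to pair them. With the replicate block the difference of miR-132-3p was -0.46 (edgeR adjusted p = 0.637), and no arm of the pair was called. The cause of these changes was not tested. Depth limits miR-212-3p most, with 178 reads in all.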
